A study of Rattus norvegicus with 46 samples.

Results

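Blood taken 6 months after inhalation of crystalline silica was compared with blood of rats that had breathed filtered air, by RNA sequencing. The 12 libraries described here, 6 silica and 6 air, were chosen by tissue, time point and treatment and are part of a series of 46 samples. The animals were male Fischer 344 rats with a labelled weight of 250 to 300 g, called aged in the title of the series, with no genotype change. They were exposed in whole-body chambers to filtered air or to Min-U-Sil 5, a fine crystalline silica dust, on 5 days, with 6 hours of exposure each day and a dust level of 15 mg/m3 in the silica chambers. Lung and blood were sampled 1 day and 6 months after exposure. The blood RNA was depleted of alpha and beta globin mRNA before poly(A) library preparation. Libraries are named by their number in the labels (air 19, 20, 21, 23, 25 and 27, and silica 30, 31, 32, 33, 34 and 36). The labels do not state that each library is a separate animal, so p-values here reflect spread among libraries, which may be technical.

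Inhaled crystalline silica is taken up by alveolar macrophages and can cause lasting inflammation and fibrosis of the lung, the disease known as silicosis. Whole blood RNA comes mainly from reticulocytes, the young red cells that still hold mRNA, from platelets and from white cells. The white cells include neutrophils, which carry granules of proteases and antimicrobial proteins, monocytes, T and B lymphocytes, and natural killer (NK) cells, which kill through perforin and granzymes. In bulk blood, fewer cells of a type and less RNA per cell cannot be told apart.

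The labelled tissue was checked first. Erythroid, platelet, neutrophil and lymphocyte genes were all detected, and of 9 lung epithelial genes only Sftpd and Ager had enough counts to be tested, with Scgb1a1 at 0 counts and Sftpc at no more than 2 in any library. Libraries held 12080141 to 17519950 counts, and globin genes still took 10.9% to 25.9% of them. Differences between silica and air in total counts, globin share, the share of the 10 most abundant genes and the number of genes detected did not pass (exact permutation tests, two-sided, p = 0.156 to 0.281). The smallest p was for mitochondrial ribosomal RNA, at 2.36% ± 0.471 of counts in silica and 1.999% ± 0.201 in air (SD, n = 6 each, exact permutation p = 0.108). Without silica 31 that p was 0.00649. With each of the other libraries left out in turn, the exact permutation p was 0.0996 to 0.221.

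Air 25 stood apart from the other 11 libraries. Its median correlation with them was 0.885, where every other library had a median of 0.944 to 0.969. It held 475 genes at least 2-fold above and 685 at least 2-fold below every other library, 9.99% of the genes tested, and it lay alone at one end of the first principal component, which took 36.2% of the variance. Eomes, a transcription factor of NK cells and effector T cells, stood at 177 CPM (counts relative to the library's total, scaled by edgeR's trimmed mean of M-values, TMM) in air 25 and at 6.95 to 21.2 in the rest. Ccr7, the homing receptor of naive T cells, stood at 4.50 CPM there and at 19.8 to 46.6 in the rest. Of all genes tested, 34.99% were highest and 31.2% lowest in air 25. Of 18 NK and cytotoxic genes, 15 were highest there. It was lowest for 14 of 16 B cell, 19 of 19 platelet, 36 of 37 erythroid, 14 of 16 mature neutrophil and 9 of 10 MHC class II genes.

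Silica 31 stood apart in another way, with 36 of 37 erythroid genes at their highest there, where 21.2% of all genes tested were highest. Tfrc, the transferrin receptor that young red cells use to take up iron, was at 163.5 CPM in silica 31 and at 11.3 to 36.1 elsewhere. Alox15, a lipoxygenase that is abundant in rodent reticulocytes, reached 40118 CPM there, where the other libraries lay between 3068 and 11834. Its scaling factor was the smallest, at 0.521, and air 25 had the largest, at 1.93. Silica 33 had the largest globin share and the lowest NK list. The results below that moved most with these libraries are given with and without them.

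**Figure D1:**
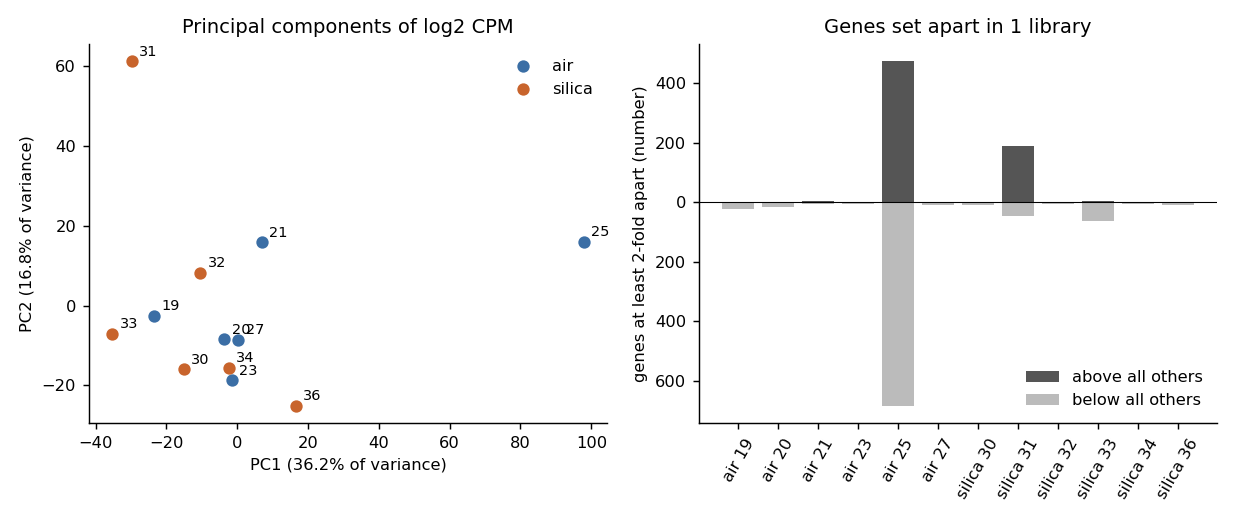
Left, the first and second principal components of log2 CPM for the 12 libraries, with air in blue and silica in orange. Right, the number of genes at least 2-fold above (upward bars) or below (downward bars) all other libraries, where air 25 has 475 and 685 and silica 31 has 188 and 47.

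No gene passed the test. Of 11615 genes with enough counts, 0 (0%) had an adjusted p under 0.05 by edgeR's quasi-likelihood test, and the smallest adjusted p was 0.446, for Ifitm6. At an unadjusted p under 0.05 there were 720 genes (6.2%), of which 295 were higher in silica (2.54%) and 425 lower (3.66%). With total counts as the only scaling the split was 11 higher and 515 lower, and the median log2 fold change of all genes moved to -0.30. DESeq2's Wald test called 7 genes and limma voom with quality weights called 5. Without air 25, edgeR called 0 of 11654 genes, with 572 at an unadjusted p under 0.05 (4.91%).

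The intervals describe, gene by gene and under TMM scaling, how large a change each gene could hold. They do not cover the choice of scaling, which moved the median of all genes to -0.30 with total counts only. The median absolute log2 fold change was 0.20 and the median standard error 0.21. The 95% interval of the fold change lay inside a 2-fold change either way for 9109 genes (78.4%), and inside 1.5-fold for 41.2%. Precision was best between 10 and 100 CPM, where 90.5% of 4826 genes had intervals inside 2-fold. It was poorer above 100 CPM, at 62.7% of 866 genes. Without air 25 the share of all genes inside 2-fold was 88.0%, and that of genes above 100 CPM was 88.9%. The biological coefficient of variation between libraries of a group was 30.5% with air 25 and 23.2% without it.

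Ifitm6, a member of the interferon-induced transmembrane protein family, had the smallest p. It was at 5.13, 2.44, 2.54, 3.31, 3.76 and 2.95 CPM in air 19, 20, 21, 23, 25 and 27, and at 6.90, 7.79, 9.58, 11.02, 7.56 and 5.597 CPM in silica 30, 31, 32, 33, 34 and 36. Every silica library lay above every air library, although air 19 and silica 36 were close. The log2 fold change was 1.26 ± 0.21 (SE), with a 95% interval of 0.81 to 1.71, an unadjusted p of 3.84e-05 and an adjusted p of 0.446 by edgeR. Leaving out air 25 gave 1.27. The call depended on the method: the adjusted p was 0.000148 by DESeq2, 0.0226 by limma voom with quality weights and 0.0490 by edgeR without air 19, and the adjusted p values of the other alternatives lay above 0.05. Over the left-out libraries the log2 fold change ranged from 1.15 to 1.42, and it was 0.79 with the neutrophil minus T cell level as a covariate and 0.89 with total counts as the only scaling.

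Far1, which makes fatty alcohols for ether lipids in peroxisomes, was the second. It stood at 31.9, 29.9, 29.5, 35.1, 35.5 and 32.9 CPM in the air libraries and at 48.6, 37.2, 43.0, 49.4, 47.5 and 41.9 CPM in the silica libraries, in the order given for Ifitm6. The groups did not overlap, with air 25 the highest air library and silica 31 the lowest silica library. Its log2 fold change was 0.46 ± 0.10, and its adjusted p was 0.658 by edgeR, 0.00775 by DESeq2 and 0.0282 by limma voom with quality weights.

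The other 20 genes of smallest unadjusted p, down to an unadjusted p of 0.00286 by edgeR, all had an adjusted p of 0.658. Groups that do not overlap were seen in 19 genes with silica above air (0.164% of those tested) and in 34 with silica below air (0.293%). Galnt3, an enzyme that starts O-linked glycans, was at 4.68 ± 0.996 CPM in silica and 2.47 ± 0.761 in air (SD, n = 6 each). Gcnt1, which builds the core 2 O-glycans that carry selectin ligands on white cells, was at 12.3 ± 1.14 CPM in silica and 8.76 ± 1.57 in air. P2ry1, the ADP receptor best known on platelets, was at 7.15 ± 2.49 CPM in silica and 3.82 ± 0.790 in air. Shoc2, a scaffold of RAS to RAF signalling, was at 27.5 ± 2.22 CPM in silica and 21.1 ± 1.74 in air. In these 4 genes the silica libraries lay above all air libraries.

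Other genes had lower values in silica. Tmed4, a p24 family protein of transport between endoplasmic reticulum and Golgi, was at 5.07 ± 1.00 CPM in silica and 7.71 ± 0.865 in air, with no overlap. Tmed1, of the same family, was at 0.766 ± 0.212 CPM in silica and 1.81 ± 1.01 in air, with air 25 the highest at 3.70. Neurl4 was at 6.64 ± 0.650 CPM in silica and 9.37 ± 1.40 in air, again with no overlap. Sytl2, which binds RAB27 on secretory vesicles, had the largest log2 fold change of the 22 genes, at -3.45 ± 0.87, but stood at 0 CPM in 4 silica libraries and at no more than 3.28 in air. Its counts were not whole numbers in 66.7% of the libraries, as when reads are divided between similar transcripts, so the value is uncertain. The same holds for Abcg3l2, LOC103692457 and LOC102556425, whose counts were not whole in any library. The remaining named genes higher in silica were LOC103693883, Klf7, Slc25a16, Rtp3 and Mmp8 (log2 fold changes 0.43 to 0.82 with LOC103692457), and those lower were PVR, Gpr89b, Ighmbp2 and Invs (-1.26 to -0.68).

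**Figure D2:**
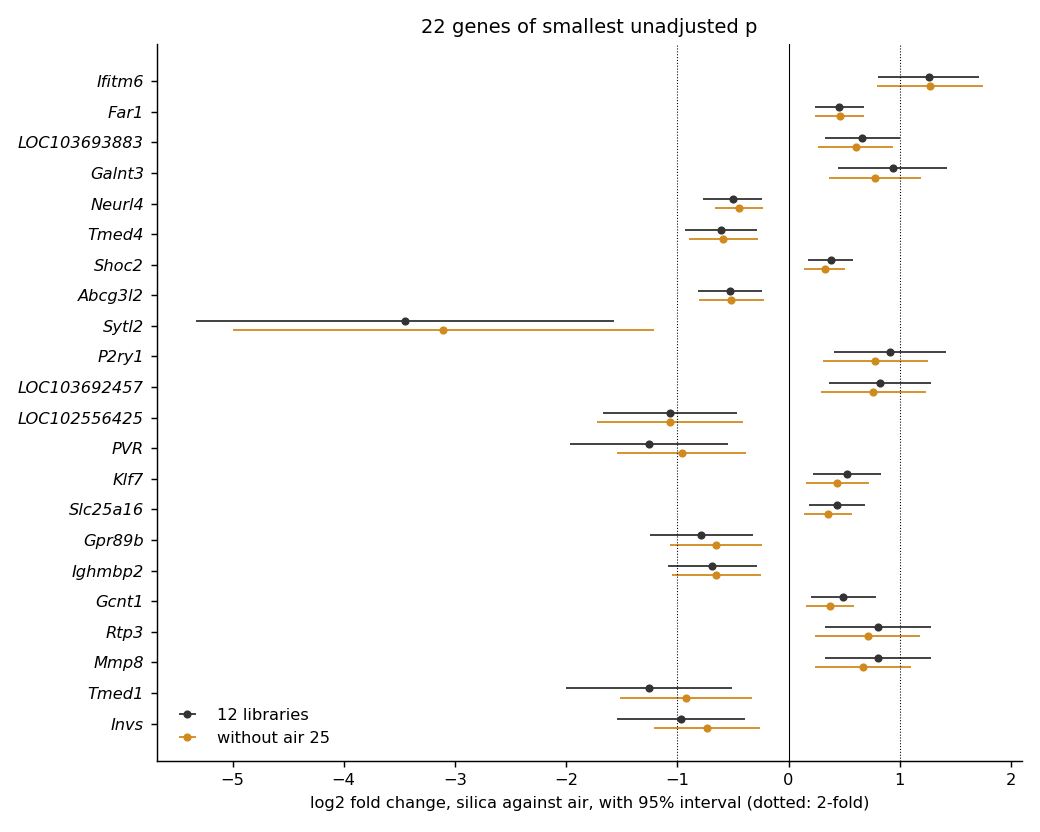
Log2 fold changes, silica against air, with 95% intervals for the 22 genes of smallest unadjusted p and a mean of at least 1 CPM in either group, from all 12 libraries (dark) and without air 25 (orange). Dotted lines mark 2-fold; Ifitm6 goes from 1.26 to 1.27 and PVR from -1.26 to -0.96 when air 25 is left out.

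Neutrophil genes had higher values in silica, though none passed the test. All 16 mature neutrophil genes had a log2 fold change above 0, where 5905 of all 11615 genes did. The list's median was 0.49 against 0.01 over all genes. At an unadjusted p under 0.05 there were 8 of the 16 (2.54% of all genes in that direction). Without air 25 the median was 0.32 and all 16 remained above 0, against 6032 of all 11654 genes. In that fit 7 were at an unadjusted p under 0.05, against 238 of all genes in that direction. These values and the levels below hold under TMM scaling. With total counts as the only scaling, 11 of all 11615 genes were higher in silica at an unadjusted p under 0.05 by edgeR. The median log2 fold change of all genes was then -0.30. The genes of a list vary together across libraries, so these counts are not independent. The list's mean log2 CPM was 6.58 ± 0.30 in silica and 5.99 ± 0.48 in air (SD, n = 6 each), or 6.17 ± 0.21 in air without air 25. Silica 30, 32, 33 and 34 lay above every air library, and silica 31 and 36 lay among them.

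Mmp8, the neutrophil collagenase, was at 190.02, 128, 110.3, 155, 79.7 and 129 CPM in the air libraries and at 211, 193, 282, 287, 256 and 152 CPM in the silica libraries. Only silica 36 overlapped the air range. The log2 fold change was 0.80 ± 0.22, or 0.67 without air 25. Cd177, a surface protein of neutrophils, had 0.97 ± 0.28 and was at 19.3 ± 7.27 CPM in silica and 9.84 ± 3.68 in air. S100a9 and S100a8, the pair that forms calprotectin, were the most abundant of the list. S100a9 was at 2408 ± 522 CPM in silica and 1500 ± 438 in air, and S100a8 at 949 ± 242 and 606 ± 178. Their log2 fold changes were 0.68 ± 0.26 and 0.65 ± 0.25. Il1r2, the decoy receptor for interleukin-1, had 0.58 ± 0.20. Without air 25 the log2 fold changes of Cd177, S100a9, S100a8 and Il1r2 were 0.90, 0.53, 0.51 and 0.44.

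Of 14 genes of the granules that form as neutrophils mature in the marrow, only 4 had enough counts to be tested, and Mpo, Elane, Ltf and Lcn2 reached no more than 20 counts in any library. Ngp, the neutrophilic granule protein, was at 27.1, 12.8, 16.1, 28.5, 17.8 and 16.3 CPM in air and at 29.0, 44.2, 45.2, 51.2, 28.5 and 21.7 CPM in silica. The 3 highest silica values, in 31, 32 and 33, stood clear of the air range, and silica 34 and 36 overlapped it. Its log2 fold change was 0.88 ± 0.25, or 0.83 without air 25. Camp, the cathelicidin precursor, had 0.78 ± 0.26, or 0.70 without air 25. Olfm4 and Cebpe had 0.47 and 0.07.

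The windows of 250 bases before the start of Ifitm6, of Mmp8 and of Ngp are printed here because these genes lead the list of single genes and the neutrophil lists. They come from RefSeq on GRCr8, read 5′ to 3′ on the gene's strand. Capitals mark TTGCNNAA, core letters of sites of the C/EBP family of myeloid transcription factors, on either strand (TTNNGCAA on the other). Over all 33469 windows of that length in the table, 9.22% hold a match, as do 6 of the 20 neutrophil genes found there of 30 in both lists. The Mmp8 and Ngp windows each hold 2 matches and the Ifitm6 window has none. Of the windows examined but not printed, those of Cd177, Camp and Far1 have none and that of Lcn2 has 1. A match is only a description of the letters.
Ifitm6, chr1:205547921-205548170, minus strand: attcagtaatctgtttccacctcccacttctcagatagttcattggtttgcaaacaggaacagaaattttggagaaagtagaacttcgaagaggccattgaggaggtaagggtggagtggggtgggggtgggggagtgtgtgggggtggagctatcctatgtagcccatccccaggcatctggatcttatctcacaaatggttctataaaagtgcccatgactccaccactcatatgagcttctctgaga
Mmp8, chr8:13008640-13008889, plus strand: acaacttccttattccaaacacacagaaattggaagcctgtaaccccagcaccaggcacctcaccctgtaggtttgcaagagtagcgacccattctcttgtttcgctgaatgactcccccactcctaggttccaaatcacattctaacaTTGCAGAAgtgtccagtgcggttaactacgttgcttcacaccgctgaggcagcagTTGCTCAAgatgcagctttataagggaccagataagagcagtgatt
Ngp, chr8:119272355-119272604, plus strand: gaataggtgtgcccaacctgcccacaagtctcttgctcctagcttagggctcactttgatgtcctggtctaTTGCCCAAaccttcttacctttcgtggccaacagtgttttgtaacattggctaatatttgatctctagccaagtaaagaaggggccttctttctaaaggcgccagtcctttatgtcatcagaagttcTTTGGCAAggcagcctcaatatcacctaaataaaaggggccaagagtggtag

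**Figure D3:**
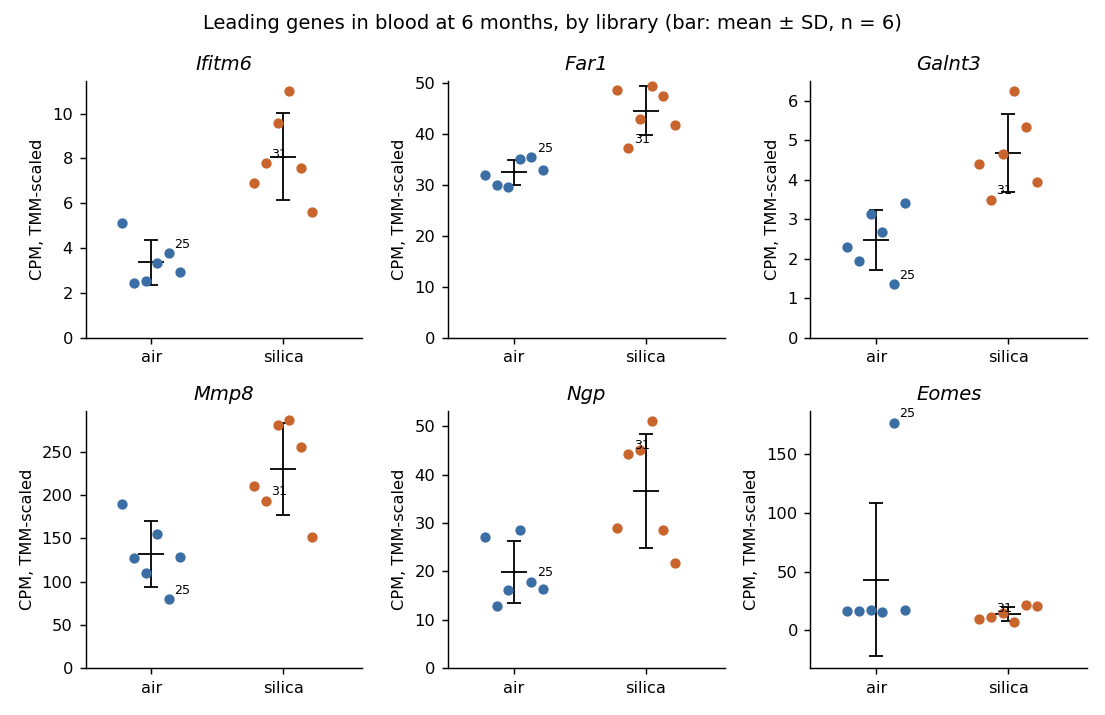
TMM-scaled CPM in each library for Ifitm6, Far1, Galnt3, Mmp8, Ngp and Eomes, air in blue and silica in orange, with the mean and SD of 6 libraries; air 25 and silica 31 are numbered. The groups do not overlap for Ifitm6, Far1 and Galnt3, they overlap for Mmp8 and Ngp, and Eomes is high in air 25 alone, at 177 CPM.

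Lymphocyte lists turned on air 25. Of 18 NK and cytotoxic genes, 17 were lower in silica and 0 passed the test, with a median log2 fold change of -0.68 that became -0.19 without air 25. Prf1, the pore-forming perforin, was at 83.7, 207, 135, 146, 537 and 105 CPM in air and at 87.3, 94.3, 123, 46.8, 119 and 191 CPM in silica. Apart from air 25 and silica 33, the silica values lay within the air range. Nkg7, a cytotoxic granule protein, had a log2 fold change of -1.13 ± 0.51 with air 25 and -0.29 without it, and Eomes -1.63 ± 0.67 and -0.25. The chemokines Ccl4 and Ccl5, which cytotoxic lymphocytes release, were both highest in air 25, at 18.1 and 566 CPM, and had log2 fold changes of -0.86 and -0.69, or -0.43 and -0.16 without it. Without air 25, silica 31 and silica 33, Ccl5 had 0.0765 and Gzmk, a granzyme of the NK list, had 0.20. Prf1, Nkg7, Eomes and Ccl4 stayed below 0 in that fit.

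B cell genes had a median of 0.51 with air 25 and 0.23 without it, and 0 of 16 passed. Ms4a1, which encodes CD20, was at 13.2 ± 4.51 CPM in silica and 7.56 ± 3.37 in air, with air 25 the lowest at 1.67. Its log2 fold change was 0.81 ± 0.36, or 0.56 without air 25. MHC class II genes, which B cells, monocytes and dendritic cells use to present antigen, had a median of 0.33, or 0.12 without air 25. Of 19 T cell genes 10 were above 0 and 9 below, with a median of 0.02. It was -0.15 without air 25, where the median of all genes was 0.01. With total counts as the only scaling it was -0.17, where the median of all genes was -0.30. Without air 25, 0 of the 19 were above 0, against 6032 of all 11654 genes. The most abundant, the coreceptor Cd4 and the transcription factor Tcf7, had log2 fold changes of -0.04 ± 0.27 and -0.01 ± 0.30, or -0.24 each without air 25, where both were at their lowest. Lck and Zap70, kinases of T cell receptor signalling, had the smallest p of the list, with -0.33 ± 0.17 and -0.35 ± 0.18, or -0.24 and -0.31 without air 25. Unlike most of the list, Lck was at its highest in air 25, at 137.7 CPM. Monocyte genes had a median of 0.11, which was -0.02 without air 25. With total counts as the only scaling it was -0.06, again where the median of all genes was -0.30. After Lyz2, whose counts were not whole in any library, their most abundant member was Fcnb, a ficolin of myeloid cells, at 258 ± 58.3 CPM in silica and 223 ± 70.3 in air, with a log2 fold change of 0.21 that was 0.06 without air 25.

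**Figure D4:**
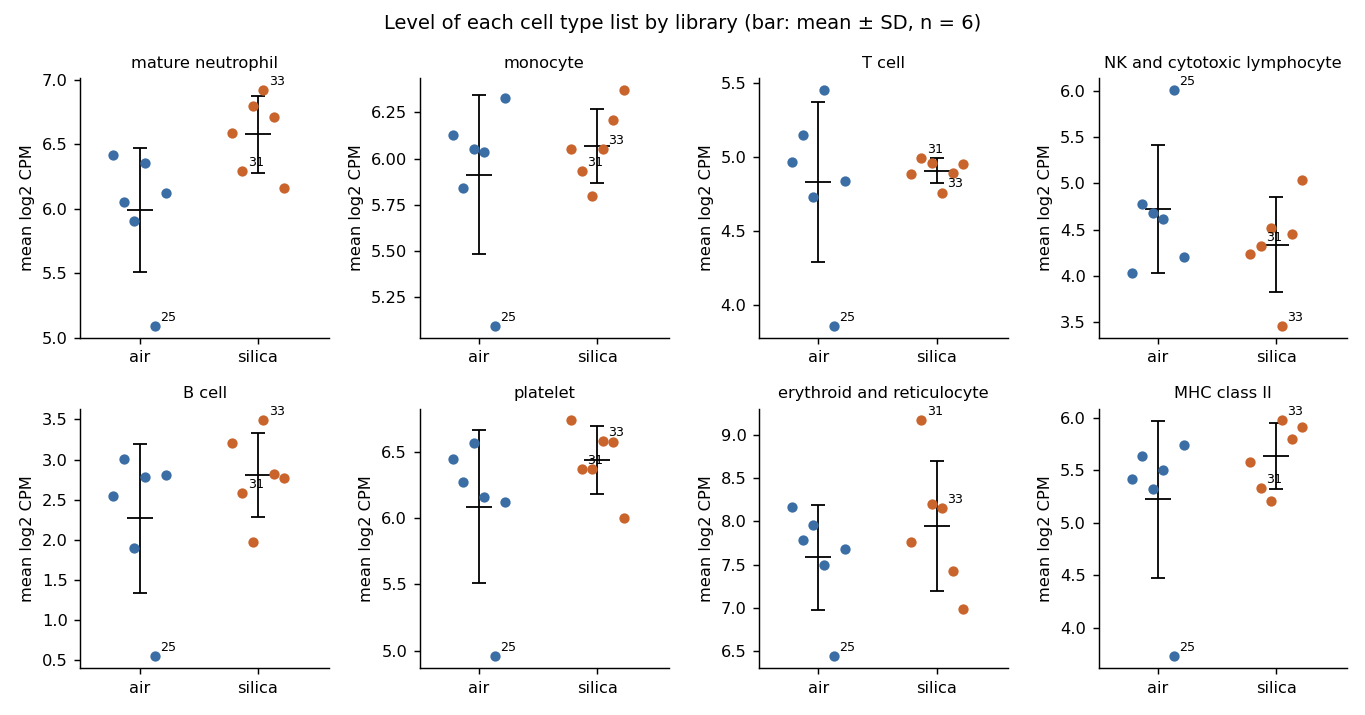
Mean log2 CPM of the tested members of 8 lists in each library, air in blue and silica in orange, with the mean and SD of 6 libraries. Air 25 is the lowest air library in every panel except NK and cytotoxic lymphocyte, where it is the highest at 6.00, and silica 31 is the highest of the erythroid panel at 9.16.

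Red cell and platelet lists moved with single libraries. Under TMM scaling all 37 erythroid genes had a log2 fold change above 0, where 5905 of all 11615 genes did. The erythroid median of 0.43 became 0.24 without air 25, 0.09 without silica 31 and -0.08 without both. Alas2, the first enzyme of haem synthesis in red cells, ran from 11395 CPM in air 25 to 73367 in silica 31, with a log2 fold change of 0.35 ± 0.40 that became -0.15 without both libraries. Rhag, a red cell membrane protein, had 0.58 ± 0.22, or 0.40 without air 25. Globin genes had a median of 0.66, which was -0.06 without air 25, silica 31 and silica 33. All 19 platelet genes were above 0 under TMM scaling, with a median of 0.30 that became 0.12 without air 25. Itga2b, a subunit of the platelet fibrinogen receptor, was at 846 ± 127 CPM in silica and 743 ± 242 in air, with air 25 the lowest at 307. Its log2 fold change was 0.19 ± 0.26, or 0.0048 without air 25. With total counts as the only scaling it was -0.00547, and the median of all genes was -0.30. In that fit Nrgn, the other most abundant platelet gene, had -0.00133 and Alas2 had -0.00965.

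Other groups of genes gave the following. Of 30 interferon-stimulated genes 12 were above 0 and 18 below, with a median of -0.04, or -0.14 without air 25. At an unadjusted p under 0.05, 2 were lower in silica with air 25 (3.66% of all genes in that direction). Without air 25, 3 were lower, against 334 of all 11654 genes. With so few members these counts are not read as a change of the list. Oas1a and Dhx58, sensors in antiviral defence, had -0.41 ± 0.17 and -0.44 ± 0.20, and were -0.49 each without air 25. Irf7, an interferon regulatory factor, had -0.02 ± 0.38, or -0.26 without air 25. The counts of Oas1a were not whole in any library, and those of Irf7 in 58.3% of the libraries, so these values are uncertain. Of 23 inflammasome and Toll-like receptor genes 0 passed, with a median of 0.17, or 0.03 without air 25. Il1b, the interleukin-1 beta gene, was at 268 ± 38.6 CPM in silica and 198 ± 71.4 in air, with air 25 the lowest at 68.4. Its log2 fold change was 0.44 ± 0.27, or 0.24 without air 25. Proliferation genes had a median of -0.49 with air 25 and -0.04 without it. Mcm3, a subunit of the replicative helicase, had -0.37 ± 0.14, or -0.27 without air 25. Of 18 oxidative stress and NRF2 genes 13 were above 0 and 5 below, with a median of 0.29, or 0.09 without air 25. With total counts as the only scaling it was -0.02, where the median of all genes was -0.30. The smallest p values of that list were those of Gsr, glutathione reductase, at 0.35 ± 0.16 (0.23 without air 25), and of the metallothionein Mt1, at -0.56 ± 0.25 (-0.57). Of 10 basophil, mast cell and eosinophil genes 8 were above 0 and 2 below, with a median of 0.26, or 0.09 without air 25. The most abundant member was Alox15, which is also abundant in reticulocytes and was highest in silica 31. It had 0.88 ± 0.56, or -0.07 without air 25 and silica 31. Ccr3, the eotaxin receptor and the next most abundant, had 0.33 ± 0.23, or 0.15 without air 25. Prg2, the eosinophil major basic protein, had the largest value of that list, 1.06 ± 0.38 from 1.15 ± 0.521 CPM in silica and 0.556 ± 0.280 in air, or 0.96 without air 25.

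Genes known from earlier results of this series to respond in silica lungs were mostly not measurable in blood. Of 28, 11 had enough counts to be tested and 0 passed, with a median log2 fold change of 0.55 (0.39 without air 25). The 6 at an unadjusted p under 0.05, all higher in silica (2.54% of all genes in that direction), were Cd177, S100a8, S100a9, Il1r2, Hp and C3, of which 4 are also in the mature neutrophil list. Without air 25 the number was 5, against 238 of all 11654 genes in that direction. Haptoglobin, Hp, was at 61.0 CPM in silica and 41.7 in air, and complement C3 at 90.5 and 67.8. Ccl2, which attracts monocytes, was at 1.66 and 1.56 CPM, with a log2 fold change of 0.09 ± 0.29. Mmp12 and Ccl7 reached no more than 1 count and Lpo and Cxcl1 were at 0 counts in every library.

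**Figure D5:**
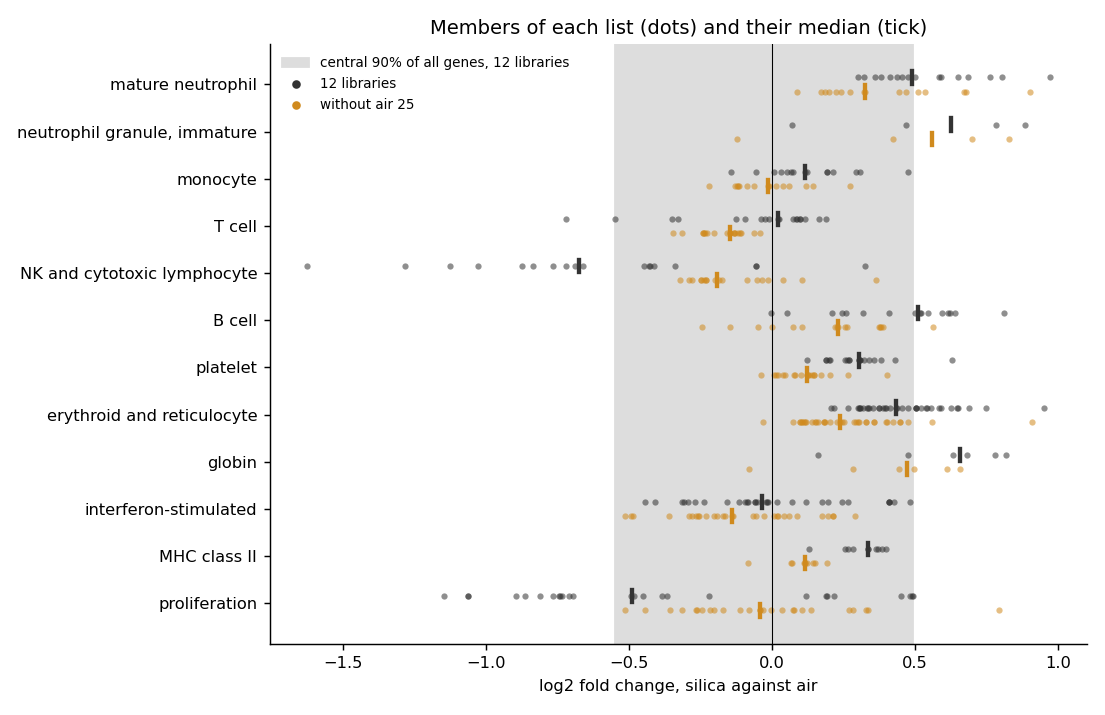
Log2 fold change of each tested member of 12 lists (dots) with the list's median (tick), from 12 libraries (dark) and without air 25 (orange). The grey band spans the central 90% of all genes, -0.55 to 0.49. The NK median goes from -0.68 to -0.19 and that of mature neutrophil genes from 0.49 to 0.32.

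Blood at 1 day, from 12 other libraries, gave 0 genes past the threshold of 11876 (0%) and 430 at an unadjusted p under 0.05 (3.62%). The difference of the silica effect between times gave 0 of 12264 (0%) by edgeR's interaction test, with 335 at an unadjusted p under 0.05 (2.73%). Its 95% intervals were wider, lying inside 2-fold for 60.6% of genes. Mature neutrophil genes had a median log2 fold change of 0.39 at 1 day, with 4 of 16 at an unadjusted p under 0.05. Mmp8 had 0.51 ± 0.21 at 1 day, Cd177 0.01 ± 0.30 and Ngp -0.26 ± 0.31. Ifitm6 had 0.24 ± 0.25 at 1 day, and its difference between times was 1.02 ± 0.34 with an adjusted p of 0.999 by edgeR. PVR had the smallest p of that test, with a difference of -1.41 ± 0.41 and the same adjusted p. Across 11499 genes the log2 fold changes at the 2 times had a Pearson correlation of 0.185, or 0.0985 without air 25, given as a description because genes share libraries and are not independent.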

How the data were processed

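RNA from globin-depleted whole blood was sequenced from TruSeq stranded mRNA libraries, per the labels' protocols. The deposited values are estimated counts per gene from Salmon, which need not be whole. The submitters' processing notes name bcl2fastq 2.19, Trim Galore 0.6.7, cutadapt 3.4, STAR 2.6.1d, Salmon 1.10.1 and the build Rnor_6.0, without roles. Here expected counts were rounded, genes were filtered with filterByExpr (minimum count 10, minimum total 15), scaled by TMM and tested with edgeR 4.0.16 (R 4.3.3) quasi-likelihood F tests, robust, with Benjamini-Hochberg adjustment over all genes and a threshold of 0.05. Only the 12 blood libraries at 6 months entered the main test, and all 24 blood libraries the test between times. Library measures were compared by exact permutation. Alternatives used DESeq2 1.42.0, limma 3.58.1, other scalings and filters, covariates, and libraries left out. A list level is the mean log2 CPM of tested members (prior count 2).

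Named genes are the 22 of smallest unadjusted p with at least 1 CPM in either group, since none passed, and in each list the 2 most abundant and the 2 of smallest p; the text describes some of these, and names further list members and genes of libraries that stand apart after their values were seen. The members and lists were chosen with earlier results of these data known. Of 447 list entries, 4 were found under a synonym. In 30 pairs of libraries of the same group, 35.0% to 93.4% of genes differed beyond counting noise, so no library was counted as a duplicate. The scripts were tested on simulated data. Lung libraries were not used here.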

Additional observations from a re-analysis of the deposited data

Results flagged for a closer look

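In each group of 6 libraries, the highest and the lowest value were set against their nearest neighbour by Dixon's criterion (a gap that takes more of the group's range than the 95% critical value for 6 samples) over 270 groups of values, which covered list levels, library measures and every gene that the naming rule gives. There were 37 values that stood out, 29 of them in air 25. Chance marks about 1 group in 20, and the values of one library are not independent.

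Air 25 was the lowest air library in mean log2 CPM for these lists: MHC class II 3.73 (next 5.32), globin 9.41 (next 10.58), inflammasome and Toll-like receptor 3.58 (next 4.31), leukocyte trafficking receptor 4.60 (next 5.32), lung epithelium (other tissue) -0.35 (next 0.52), lung silica response (from earlier results) 4.10 (next 5.01), oxidative stress and NRF2 5.51 (next 6.20), platelet 4.96 (next 6.12). Among the air libraries its scaling factor of 1.93 was the highest (next 1.09), and its 10 most abundant genes took the lowest share of counts, 25.4% (next 33.8%). Silica 36 was nearer, at 1.39 and 32.5%. The next values given below for genes in air 25 are also those of the air group. Genes highest there, in CPM, were Ccl4 (18.1, next 7.21), Ccl5 (566, next 177), Eomes (177, next 17.1), Gsdmd (19.1, next 13), Gzmk (250, next 69.1), Hspd1 (80.8, next 33), Hspe1 (19.9, next 9.94), Invs (2.44, next 1.38), Nkg7 (262, next 54.6), PVR (5.14, next 2.77), Prdm1 (28.7, next 9.62), Prf1 (537, next 207), Sdc1 (10.8, next 3.05). Genes lowest there, in CPM, were Cd74 (117, next 397), Gsr (37.3, next 58), RT1-Ba (37.7, next 124), RT1-Da (43.2, next 125), Rhag (16.8, next 38.2), Selp (0.482, next 1.23).

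Silica 31 was the highest silica library, in CPM, for Alas2 (73367, next 36257), Alox15 (40118, next 11754), Cd36 (190, next 96.6), Rsad2 (6095, next 3136), Tk1 (1093, next 531). Silica 33 was the highest for Ccr3 (48.3, next 35.3), Gcnt1 (14.5, next 12.2). Silica 36 had the lowest total count of its group, 12.1 (next 14.3), in units of 1e+06 counts.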

How the results depend on the processing

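No paired analysis was possible because the silica and air libraries share no replicate numbers. No genes passed by edgeR under each of the other scalings, filters and covariates. DESeq2 called 7 and limma voom with quality weights 5, and leaving out one library gave 0 to 2. Of the genes called by DESeq2, Aph1b, Eif3h, Rlim, Nol8-2 and LOC102546946 were under edgeR's filter on low counts. Over the left-out libraries, genes at an unadjusted p under 0.05 by edgeR ran from 416 without silica 33 to 1119 without air 19, against 720 in the main fit. They numbered 170 with the neutrophil minus T cell level as a covariate, 382 with the NK list level and 523 with the erythroid list level. By limma voom with quality weights they numbered 1135. With total counts as the only scaling, the silica minus air difference in list level moved by more than the spread for these lists: neutrophil granule, immature 0.27, plasma cell -0.18, interferon-stimulated -0.29, inflammasome and Toll-like receptor -0.11, cytokine and chemokine -0.27, leukocyte trafficking receptor -0.17, oxidative stress and NRF2 -0.12, immediate early -0.16, heat shock -0.35, circadian clock -0.33. The difference in mitochondrial ribosomal RNA share passed 0.05 without silica 31, at 0.511 percentage points, and ranged from 0.235 to 0.511 over the left-out libraries. Ifitm6 passed by DESeq2, by limma voom with quality weights and without air 19, Far1 by DESeq2 and limma voom, and Sytl2 by limma voom (adjusted p = 0.0436). For these changes the cause was not tested.

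Over the 105 genes that the naming rule gives, 113 of 2624 log2 fold changes under the alternatives changed sign, in 35 genes, none of them among the 22 of smallest p. With the NK list level as a covariate, the sign turned for Cd22 (-0.0391), Ftl1 (-0.0304), Hsp90aa1 (0.10), Itgax (0.0577), Itgb2 (0.00908), Ppp1r15a (-0.0547), Sftpd (-0.14). Without air 25 and silica 31, the sign turned for Alas2 (-0.15), Alox15 (-0.0660), Bpgm (-0.0720), Cd22 (-0.0728), Fth1 (-0.12), Ftl1 (-0.15), Gzmk (0.0107), Hsp90aa1 (0.0706), Irak1 (-0.0112), Itgax (0.0575), Itgb2 (0.00834), Ppp1r15a (-0.13), Rsad2 (-0.0787), Sdc1 (0.0858), Sftpd (-0.0440), Tk1 (-0.0808), Ube2c (-0.0349), Xbp1 (-0.0195). Without air 25, silica 31 and silica 33, the sign turned for Alas2 (-0.24), Alox15 (-0.27), Bhlhe40 (0.0585), Bpgm (-0.20), Ccl5 (0.0765), Cd22 (-0.0705), Cd36 (-0.0518), Ciart (-0.0634), Cr2 (-0.0663), Fth1 (-0.23), Ftl1 (-0.32), Gzmk (0.20), Hba1 (-0.000903), Hbb-b1 (-0.0379), Irak1 (-0.0816), Itgax (0.0784), Itgb2 (0.0613), Pou2af1 (-0.0474), Ppp1r15a (-0.29), Rsad2 (-0.16), Sdc1 (0.0800), Sftpd (-0.00666), Tk1 (-0.21), Ube2c (-0.21). With the erythroid list level as a covariate, the sign turned for Alas2 (-0.0445), Alox15 (-0.0475), Fth1 (-0.00556), Ftl1 (-0.0376), Hsp90aa1 (0.0318), Itgax (0.0110), Ppp1r15a (-0.0228), Sftpd (-0.0227), Tk1 (-0.0371). By limma voom with quality weights, the sign turned for Alas2 (-0.0193), Cd22 (-0.11), Ftl1 (-0.0552), Hsp90aa1 (0.13), Itgax (0.12), Ppp1r15a (-0.0400). With the neutrophil minus T cell level as a covariate, the sign turned for Bhlhe40 (0.0339), Cd4 (0.20), Sftpd (-0.45), Tcf7 (0.18), Zap70 (0.0262). With total counts as the only scaling, the sign turned for Alas2 (-0.00965), Cd22 (-0.0710), Fth1 (-0.0275), Ftl1 (-0.0692), Irf8 (-0.16), Itga2b (-0.00547), Jun (-0.12), Nrgn (-0.00133), Ppp1r15a (-0.0726), Sftpd (-0.13), Xbp1 (-0.21). Leaving out one library turned the sign for Ager (-0.44 to 0.0385), Cd22 (-0.15 to 0.15), Cd4 (-0.24 to 0.15), Hsp90aa1 (-0.21 to 0.12), Irf7 (-0.26 to 0.10), Irf8 (-0.0319 to 0.15), Itgax (-0.0893 to 0.0640), Sdc1 (-0.86 to 0.0782), Sftpd (-0.17 to 0.24), Tcf7 (-0.24 to 0.15), Xbp1 (-0.0303 to 0.0680). The alternatives without 2 or 3 libraries together, and with the NK list as a covariate, were chosen after seeing the data. Intervals lay inside 2-fold least often for genes under 1 CPM, 43.5% of 377, and for those above 100 CPM the share was 62.7%, against 90.5% between 10 and 100 CPM. No alternative varied depth.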
